A study of Mus musculus with 8 samples.

Results

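Dbh, Th, Ddc, Slc18a2, Slc6a2, Slc6a3, Maoa and Maob encode the enzymes and transporters that make, store, take up and break down monoamines, and they were taken as a set by name, 8 of the 18939 genes in a table of read counts. For a gene with several transcripts, the transcript with the most counts over all libraries was used. The counts came from TRAP-Seq, in which ribosomes carrying a tagged subunit are pulled out of a tissue so that the RNA bound to them is sequenced. The libraries were made from dissections of the paraventricular thalamus (PVT) of mice, and the tagged cells were those that express the mu opioid receptor (MOR). The question was how 11 days of oral morphine changed the RNA on the ribosomes of these cells.

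The control group drank 0.2% saccharin alone, and the morphine group drank morphine in the same saccharin solution, at 0.3 mg/ml to begin with and at 0.5 mg/ml later. Both groups carried the same alleles on a C57Bl/6J background, namely a Cre inserted at Oprm1 (MOR-Cre), so that the receptor gene itself drives Cre, and a Rosa26 allele that makes EGFP-L10a after recombination. Mice were 8 to 12 weeks old at the start. By the study's methods, each library pooled dissections from 2 mice of the same sex. Each group had 4 libraries, which are named here by group and replicate number: control 1 and control 2 (male), control 5 and control 6 (female), morphine 3 and morphine 4 (male), and morphine 7 and morphine 8 (female). Because Cre acts once and for good, cells that expressed Oprm1 at any earlier age are also tagged. The dissections were gross, so the tagged cells of neighbouring structures can be included.

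Libraries held 31151103 to 47582947 counts. Oprm1, the gene that drives Cre, stood at 25.3 ± 6.92 CPM in control and 16.5 ± 1.96 CPM in morphine libraries (SD, n = 4 each), a difference that did not pass the test (adjusted p = 0.207, edgeR). CPM are counts scaled to the size of the library after TMM normalization. The summed level of 6 thalamic marker genes was 1837 to 2369 CPM in control and 1329 to 2501 CPM in morphine libraries. Control 5, labelled female, held 1206 counts of the Y-linked gene Ddx3y, against 2202 to 3473 in the male libraries and 0 to 2 in the other female libraries, and 66 counts of Xist, a gene read at 0 in the male libraries and at 45 to 170 in the other female libraries. It goes against a pool of 1 sex, and results by sex are given with and without it. In bulk libraries, fewer cells of a type and less RNA per cell cannot be told apart.

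Catecholamines are made from tyrosine in sequence. Tyrosine hydroxylase (Th) makes L-DOPA in the rate-limiting step, aromatic L-amino acid decarboxylase (Ddc) makes dopamine from it, and dopamine β-hydroxylase (Dbh) turns dopamine into noradrenaline inside vesicles. The vesicular monoamine transporter (Slc18a2, VMAT2) loads the vesicles, the dopamine transporter (Slc6a3, DAT) and the noradrenaline transporter (Slc6a2, NET) return the released amine to the cell, and the monoamine oxidases (Maoa, Maob) of the outer mitochondrial membrane degrade it. The PVT is known for its catecholamine input, which comes from axons of cells that lie elsewhere.

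RefSeq promoter windows on GRCm38.p6 were at hand for 6 of the 8 genes. The windows of Th, Ddc, Slc18a2 and Slc6a3 are shown because these genes had the same 3 lowest libraries, and that of Dbh because it did not follow them. Each runs 5′ to 3′ on the strand of the gene, from 150 bases before the transcription start to 4 bases after it. Capitals mark matches to any of 4 motifs searched on both strands, namely CRE (TGACGTCA), NBRE (AAAGGTCA), the TATA box (TATAAA) and the GC box (GGGCGG).
Th, chr7:142899992-142900145, minus strand: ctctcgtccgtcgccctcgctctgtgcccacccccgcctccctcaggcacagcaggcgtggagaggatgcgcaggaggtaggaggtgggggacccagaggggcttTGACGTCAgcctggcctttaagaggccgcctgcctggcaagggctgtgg
Ddc, chr11:11898141-11898294, minus strand: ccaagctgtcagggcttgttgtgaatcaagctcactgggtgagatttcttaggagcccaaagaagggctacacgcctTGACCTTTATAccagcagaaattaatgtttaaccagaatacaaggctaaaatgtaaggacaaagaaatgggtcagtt
Slc18a2, chr19:59260728-59260881, plus strand: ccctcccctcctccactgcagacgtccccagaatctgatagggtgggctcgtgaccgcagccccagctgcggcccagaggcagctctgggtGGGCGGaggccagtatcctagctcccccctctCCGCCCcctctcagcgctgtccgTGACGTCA
Slc6a3, chr13:73536597-73536750, plus strand: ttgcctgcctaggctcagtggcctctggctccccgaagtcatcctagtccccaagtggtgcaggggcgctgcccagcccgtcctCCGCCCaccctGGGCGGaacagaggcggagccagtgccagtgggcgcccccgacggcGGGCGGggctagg
Dbh, chr2:27165357-27165510, plus strand: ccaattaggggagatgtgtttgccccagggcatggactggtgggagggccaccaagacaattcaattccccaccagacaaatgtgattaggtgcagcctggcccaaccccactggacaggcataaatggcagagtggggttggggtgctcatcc

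A cAMP response element lay at -45 to -38 from the start of Th and at -4 to 4 in Slc18a2, where 4 is the last base shown. This motif was found in 1.79% of all 32851 RefSeq windows of 300 bases. The Ddc window held an NBRE on the opposite strand at -73 to -66, a motif found in 1.51% of windows. A TATA box at -68 to -63, also on the opposite strand, overlaps it, a motif found in 13.6%. Ddc has a second window, at another start, in which none of the 4 motifs was found. The counts do not tell its starts apart, since its 2 transcripts differed by at most 4 counts in any library. GC boxes, found in 35.7% of windows, stood at -59 and -27 in Slc18a2 and at -66, -55 and -9 in Slc6a3. Those at -27 and -66 were on the opposite strand. The Dbh window held none of the 4 motifs as spelled. The motifs were chosen with the genes known, and a match describes the letters only.

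Levels are compared between genes as CPM per kilobase of transcript, as mean ± SD over the 8 libraries. Maob was at 21.2 ± 10.3, Th at 17.8 ± 12.8, Maoa at 14.4 ± 3.29 and Ddc at 11.9 ± 6.02 CPM per kilobase. The ranges of these 4 genes over the libraries overlapped. Slc6a3 followed at 3.60 ± 3.57 and Slc18a2 at 1.75 ± 1.32 CPM per kilobase, and their ranges overlapped too. Dbh was lower in the mean, at 0.114 ± 0.0875 CPM per kilobase, and its range of 0.0101 to 0.261 overlapped that of Slc6a3, which began at 0.047. Slc6a2 was read 3 times in all 8 libraries together. Genes of degradation and of the first 2 steps of synthesis were thus the most abundant, and the noradrenaline transporter was near 0 in every library.

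**Figure D1:**
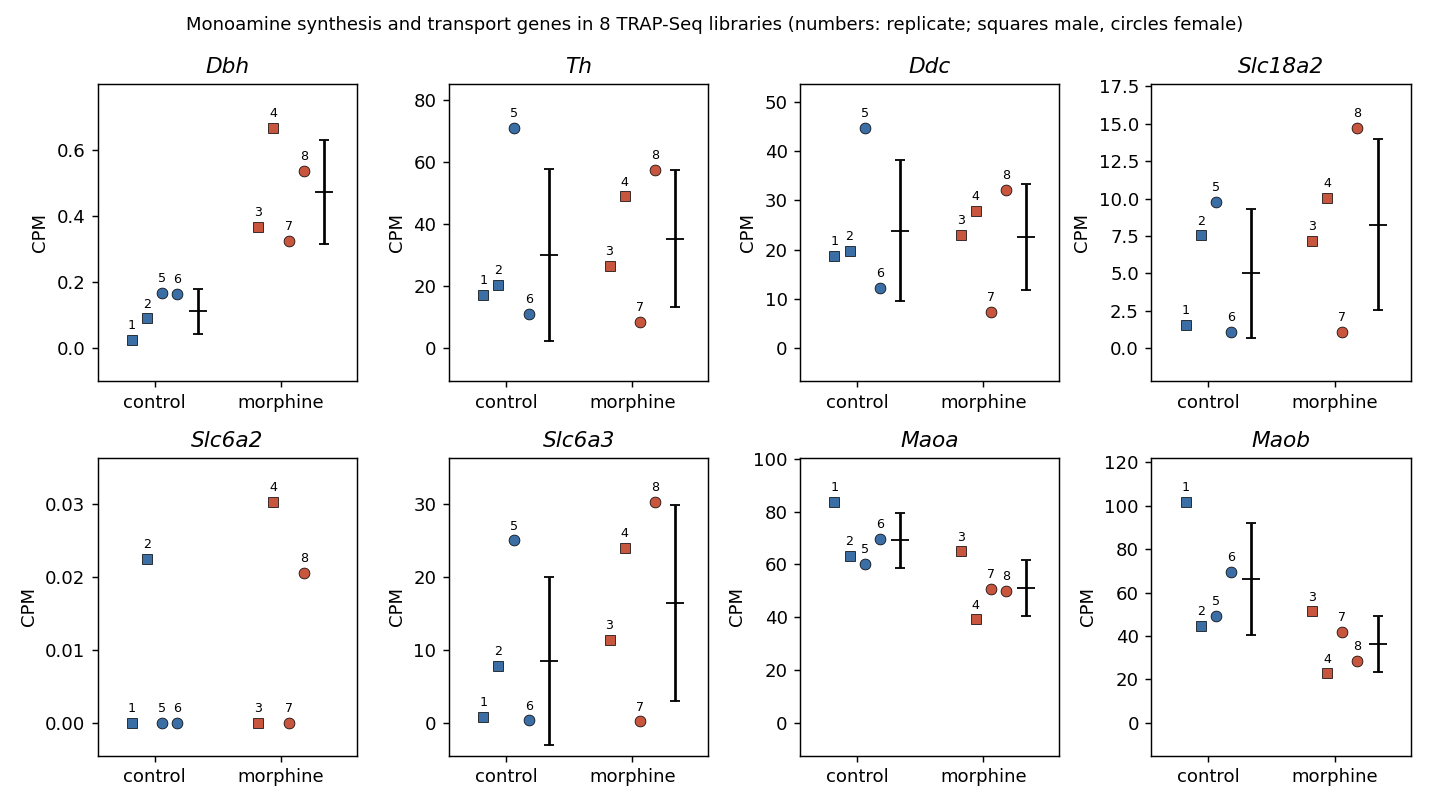
CPM (y axis) of each of the 8 genes in each library, by group (x axis). Points are libraries with their replicate numbers, squares are male and circles female by label, and bars show the mean ± SD of 4 libraries (not drawn for Slc6a2, which has 3 counts in all). For Dbh all morphine libraries lie above all control libraries, while for Th, Ddc, Slc18a2 and Slc6a3 both groups hold low and high libraries.

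In the comparison of morphine with control, the quasi-likelihood test of edgeR (Benjamini-Hochberg adjustment) called 0 of the 8 genes at an adjusted p under 0.05, against 37 of all 18939 genes (0.195%). DESeq2 called 1 of the 8, Dbh, against 502 of the 15260 genes to which it gave an adjusted p (3.29%), and limma-voom called 0. At an unadjusted p under 0.05 there were 3 of the 8 genes, against 12.1% of all genes. Of these, Dbh was higher in morphine (6.79% of all genes were higher at that p) and Maoa and Maob were lower (5.31% of all genes were lower). Dbh was the 1 gene of the set whose groups did not overlap, against 6.54% of all genes in either direction and 3.34% with all morphine libraries above all control libraries. The median log2 fold change was 0.24 over the 7 genes other than Slc6a2, which has 3 counts, and 0.0088 over all genes. The first of these medians is the value of Th, which ranged from -0.095 to 1.11 with 1 library left out (edgeR), so that its size and sign rest on single libraries.

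Dbh, the enzyme specific to noradrenaline and adrenaline synthesis, lies at chr2:27165507-27183204 on the plus strand and has 12 exons. Control 1, 2, 5 and 6 held 1, 4, 7 and 6 counts, and morphine 3, 4, 7 and 8 held 13, 22, 10 and 26 counts. The lowest morphine library, morphine 7, thus still stood above the highest control library. In CPM the means were 0.112 ± 0.0673 in control and 0.473 ± 0.158 in morphine (SD, n = 4 each). Pooled over libraries, 18 control counts gave 0.111 CPM, with an exact Poisson 95% interval of 0.0658 to 0.176, and 71 morphine counts gave 0.480 CPM, with an interval of 0.375 to 0.605. These intervals cover counting error only, since pooling leaves out the spread between libraries, and they are no test of the groups. Reads copied by PCR cannot be recognised, so that even the counting error may be larger.

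The log2 fold change of Dbh was 2.06 ± 0.48 (SE), with p = 0.00122 and an adjusted p = 0.114 in edgeR, and an exact permutation test gave p = 0.0286, the smallest that 4 against 4 libraries allow. DESeq2 gave 2.09 with an adjusted p = 0.0260, so that the call rests on the tool. With 1 library left out at a time, the log2 fold change stayed between 1.74 (without control 1) and 2.32 (without control 5), and unadjusted p between 0.00142 and 0.00525 in edgeR. Within the sexes, morphine was higher in the male libraries by 3.16 and in the female libraries by 1.38 on the log2 scale of mean CPM (n = 2 each).

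Marker genes of several cell types were read in the same libraries, and which cells carried the Dbh RNA is not known from these counts. Of 6 noradrenergic marker genes 4 were in the table, with a summed level of 7.56 to 40.02 CPM in control and 20.6 to 26.4 CPM in morphine libraries, and this sum is nearly all Gal and Npy, neuropeptides that other neurons make too. The summed level of 10 choroid plexus marker genes was 35.6 to 106 CPM in control and 126 to 393 CPM in morphine libraries, with no overlap, as for Dbh. Of these 10 genes, 6 had all morphine libraries above all controls (Ttr, Kl, Folr1, Clic6, Kcnj13 and Slc4a5), while Prlr was at -0.41 and Otx2 at 0.052 in log2 fold change, neither of which passed the test. Ttr, the transthyretin carrier protein, ranged from 0.949 CPM in control 1 to 302 CPM in morphine 8 and did not pass the test (adjusted p = 0.133, edgeR). Of 8 telencephalic pyramidal marker genes, whose sum of 231 to 483 CPM in control and 391 to 722 CPM in morphine libraries overlapped, Neurod6 and Neurod2 also lay higher in all morphine libraries and Cux2 lower. Neurod6, a transcription factor of these neurons, was at 1.51 to 13.7 CPM in control and 30.6 to 70.8 CPM in morphine libraries (adjusted p = 0.0569, edgeR). In the other 12 lists no gene separated the groups. The part of such cells in the Dbh difference was not tested.

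Over the 8 libraries, the 10 genes whose log2 CPM was most like that of Dbh, of 12989 genes with a mean of at least 1 CPM, were Arhgap15, Lix1, Calml4, Ccnjl, Kcnj3, Rasl10a, Mas1, Fgf5, Fam163b and Thsd7a, with Pearson r from 0.966 to 0.981. These points share the group difference, and they share library depth. Th ranked 3368 in likeness to Dbh (r = 0.38), Ddc ranked 5129 (r = 0.15) and Slc6a3 ranked 3043 (r = 0.42). Dbh thus did not share the profile of Th and Ddc, the enzymes before it in synthesis, or that of Slc6a3.

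**Figure D2:**
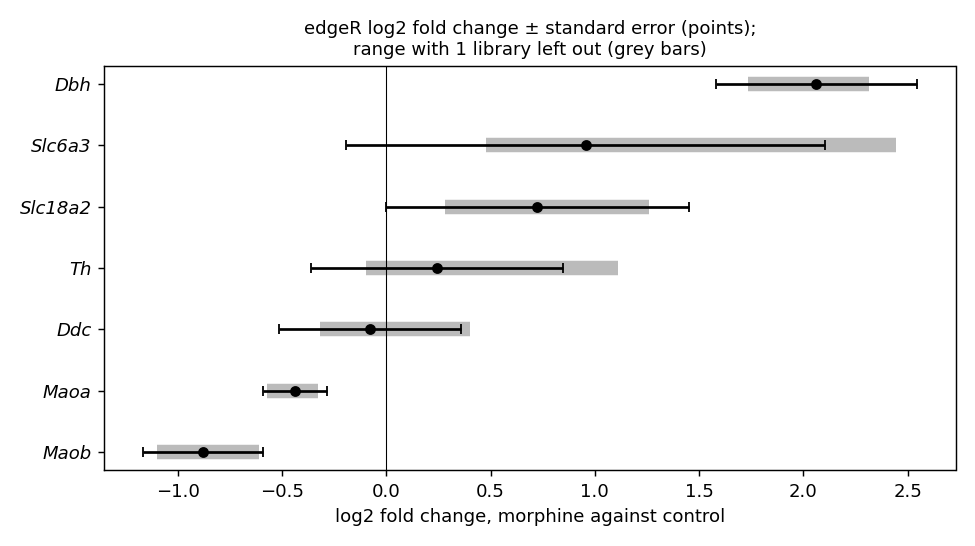
Log2 fold change of morphine against control (x axis) in edgeR for 7 of the 8 genes (y axis). Points with bars are the value ± its standard error over all 8 libraries, and grey bars span the values with 1 library left out. Dbh lies at 2.06, Maoa and Maob lie below 0 throughout, and the grey bars of Th and Ddc cross 0.

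Th, which lies at chr7:142892779-142899995 on the minus strand with 13 exons, was at 17.1, 20.3, 71.1 and 11.0 CPM in control 1, 2, 5 and 6, and at 26.6, 48.9, 8.38 and 57.5 CPM in morphine 3, 4, 7 and 8. The groups overlapped, with the highest library in control and the lowest in morphine. The log2 fold change of Th was 0.24 ± 0.61 (SE), with an adjusted p = 0.897 in edgeR and p = 0.743 in the exact permutation test. Without control 5, which had the highest level, it was 1.11 with an unadjusted p = 0.0476 and an adjusted p = 0.445 (edgeR). Without control 6 or morphine 8 it was below 0.

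Ddc, the decarboxylase, lies at chr11:11814101-11898144 on the minus strand, and the transcript counted has 15 exons. It was at 18.8, 19.7, 44.7 and 12.2 CPM in control 1, 2, 5 and 6 and at 22.9, 27.9, 7.34 and 32.0 CPM in morphine 3, 4, 7 and 8. As for Th, control 5 was the highest and morphine 7 the lowest of the 8 libraries. Its log2 fold change was -0.078 ± 0.44 (SE), with an adjusted p = 0.966 in edgeR. Its sign turned without control 5, to 0.40, and without morphine 7, to 0.19.

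Slc18a2, the vesicular transporter, lies at chr19:59260878-59296012 on the plus strand with 16 exons, and antisense gene Gm29261 overlaps exons of it on the other strand, so that its counts are uncertain where the strand was not used. It was at 1.56, 7.54, 9.78 and 1.11 CPM in control 1, 2, 5 and 6, and at 7.17, 10.1, 1.07 and 14.7 CPM in morphine 3, 4, 7 and 8. Control 1, control 6 and morphine 7 were low and the other 5 libraries were 4.58-fold or more above them. Between the groups its log2 fold change was 0.73 ± 0.73 (SE), with an adjusted p = 0.694 in edgeR. It ranged from 0.28 without morphine 8 and 0.37 without control 6 to 1.26 without control 5.

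Slc6a3, the dopamine transporter, lies at chr13:73536128-73578672 on the plus strand, and the transcript counted has 15 exons. The window shown above belongs to a start that lies inside this gene record, downstream of its first base. It was at 0.795, 7.79, 25.0 and 0.299 CPM in control 1, 2, 5 and 6, and at 11.3, 24.0, 0.162 and 30.3 CPM in morphine 3, 4, 7 and 8. The same 3 libraries were low as for Slc18a2, with a gap of 9.8-fold to the next library, and the range from the lowest to the highest library was 186-fold, the widest of the 7 genes with more than 3 counts. Its log2 fold change was 0.96 ± 1.15 (SE), with an adjusted p = 0.761 in edgeR. Without control 5 it was 2.44, with an unadjusted p = 0.0647 and an adjusted p = 0.488 (edgeR), and it was 0.48 without morphine 8, 0.53 without control 6 and 0.55 without control 1.

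Slc6a2, the noradrenaline transporter, lies at chr8:92960470-93001667 on the plus strand with 14 exons. It had 1 count in control 2, in morphine 4 and in morphine 8, and 0 counts in the other 5 libraries. Pooled by group, the exact Poisson 95% intervals reached up to 0.0344 CPM in control and 0.0488 CPM in morphine libraries. No fold change is given at such counts, and a difference between the groups was not detectable at this depth.

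Maoa, the oxidase with a preference for serotonin and noradrenaline, lies at chrX:16619698-16687812 on the plus strand with 15 exons. It was at 83.6, 63.1, 60.2 and 69.6 CPM in control 1, 2, 5 and 6, and at 64.9, 39.1, 50.6 and 49.8 CPM in morphine 3, 4, 7 and 8. Morphine 3 overlapped the controls, and the other 3 morphine libraries lay below all of them. For Maoa the log2 fold change was -0.44 ± 0.15 (SE), with p = 0.0155 and an adjusted p = 0.285 in edgeR, and the exact permutation test gave p = 0.0857.

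Maob, the oxidase of glia and of serotonergic and histaminergic neurons, lies beside Maoa at chrX:16709281-16817366 on the minus strand with 15 exons. It was at 102, 44.6, 49.3 and 69.6 CPM in control 1, 2, 5 and 6, and at 51.3, 22.7, 41.8 and 28.5 CPM in morphine 3, 4, 7 and 8. Again morphine 3 was the 1 morphine library that overlapped the controls. For Maob the log2 fold change was -0.88 ± 0.29 (SE), with p = 0.0108 and an adjusted p = 0.250 in edgeR, 0.0643 in DESeq2, and the exact permutation test gave p = 0.0857. Without control 1 it was -0.61 and without morphine 3 it was -1.10, with unadjusted p between 0.00406 and 0.0350 over all libraries left out in turn. Summed astrocyte markers were 19.1 to 64.0 CPM in control and 33.6 to 79.3 CPM in morphine libraries, and summed serotonergic markers 10.1 to 40.8 and 7.86 to 37.5 CPM, so that neither list separated the groups. Thalamic marker genes were read beside both oxidases. All 6 had a log2 fold change below 0, from -0.69 for Gbx2 to -0.022 for Slc17a6. In edgeR 0 of the 6 passed the test and 1 (Gbx2) was at an unadjusted p under 0.05. Their sum overlapped between the groups as given above. Gbx2, a transcription factor of thalamic neurons, was at 78.3, 60.8, 60.6 and 75.9 CPM in control 1, 2, 5 and 6 and at 62.5, 27.0, 45.7 and 35.4 CPM in morphine 3, 4, 7 and 8, with an adjusted p = 0.227 in edgeR. As for the oxidases, morphine 3 was the 1 morphine library that overlapped the controls. The part of thalamic cells in the levels of Maoa and Maob was not tested.

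Between the sexes, 0 of the 8 genes were called in edgeR and in DESeq2, against 1 called gene in all in edgeR (0.00528%) and 21 in DESeq2 (0.138%). At an unadjusted p under 0.05 there were 0 of the 8 in edgeR, against 3.1% of all genes. The interaction of sex with morphine was called for 0 of the 8 genes in edgeR and in DESeq2, and for 0 of all genes in edgeR (0%) and 4 in DESeq2 (0.0211%). At an unadjusted p under 0.05 there were again 0 of the 8 in edgeR, against 1.72% of all genes. On the log2 scale of mean CPM, the morphine over control value of Th was 1.01 in the male and -0.32 in the female libraries, and that of Slc6a3 was 2.04 and 0.27, with interaction p of 0.260 and 0.442 in edgeR. That of Maoa was -0.50 and -0.37, and that of Maob was -0.98 and -0.76. Each of these values rests on 2 libraries per sex and group. The female values of Th and Slc6a3 depend on control 5: against control 6 alone, that of Th turned to 1.58 and that of Slc6a3 moved to 5.67, while those of Ddc and Slc18a2 went from -0.53 to 0.69 and from 0.54 to 2.83. The female values of Dbh, Maoa and Maob were 1.40, -0.47 and -0.98 against control 6 alone. Without control 5 the counts of called genes were also 0.

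The rule of the set asked for co-variation between libraries, so the 28 pairs of genes were compared by Pearson r of log2 CPM over the 8 libraries. With exact permutation tests over 40320 pairings and Benjamini-Hochberg adjustment over the 28 pairs, 9 pairs passed. Of these, 5 pairs join Slc18a2 and Slc6a3 to each other or to Th or Ddc. The libraries fall into 3 low and 5 high for Slc18a2 and Slc6a3, so no r over all libraries is taken as a tested relation for these pairs, and fewer than 6 libraries in each cluster are too few for one. The other 4 pairs were Th with Ddc, Maoa with Maob, and Dbh with each oxidase. Among the 6 genes with a mean of at least 1 CPM, 6 of 15 pairs had r of at least 0.9, against 0.613% of pairs of all genes over that level, and 4 of these 6 pairs include Slc18a2 or Slc6a3.

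Th and Ddc, consecutive enzymes, had r = 0.963 (exact permutation p = 2.48e-05, adjusted 0.000694) and the same order of libraries, Spearman rho = 1 (exact p = 4.96e-05). With the group means subtracted, r was 0.985, and without control 5 and morphine 7, the 2 libraries farthest from the median of Th, it was 0.974 (exact permutation p = 0.00139). Per kilobase, the ratio of Th to Ddc stayed between 0.966 and 1.92. Maoa and Maob, neighbouring genes on the X chromosome, had r = 0.959 (exact permutation p = 0.000198, adjusted 0.00139) and rho = 0.976 (exact p = 0.000397). Without control 1 and morphine 4, the 2 libraries farthest from the median, r was 0.870 (exact permutation p = 0.00556), and with group means subtracted it was 0.922. Both relations thus held with the difference between the groups removed.

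Dbh moved against the oxidases, with r = -0.866 for Maoa (exact permutation p = 0.00590, adjusted 0.0194, rho = -0.810, exact p = 0.0218, adjusted 0.0762) and r = -0.862 for Maob (exact permutation p = 0.00623, adjusted 0.0194, rho = -0.762, exact p = 0.0368, adjusted 0.114). With the group means subtracted, r was -0.72 for Maoa (exact permutation p = 0.0434, adjusted 0.152) and -0.74 for Maob (exact permutation p = 0.0608, adjusted 0.175). Without control 1 and morphine 4, r was -0.64 for Maoa (exact permutation p = 0.183) and -0.58 for Maob (exact permutation p = 0.214). The sign was the same each time, but neither relation passed the threshold without those 2 libraries or, after adjustment, by rho or with the group means subtracted.

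**Figure D3:**
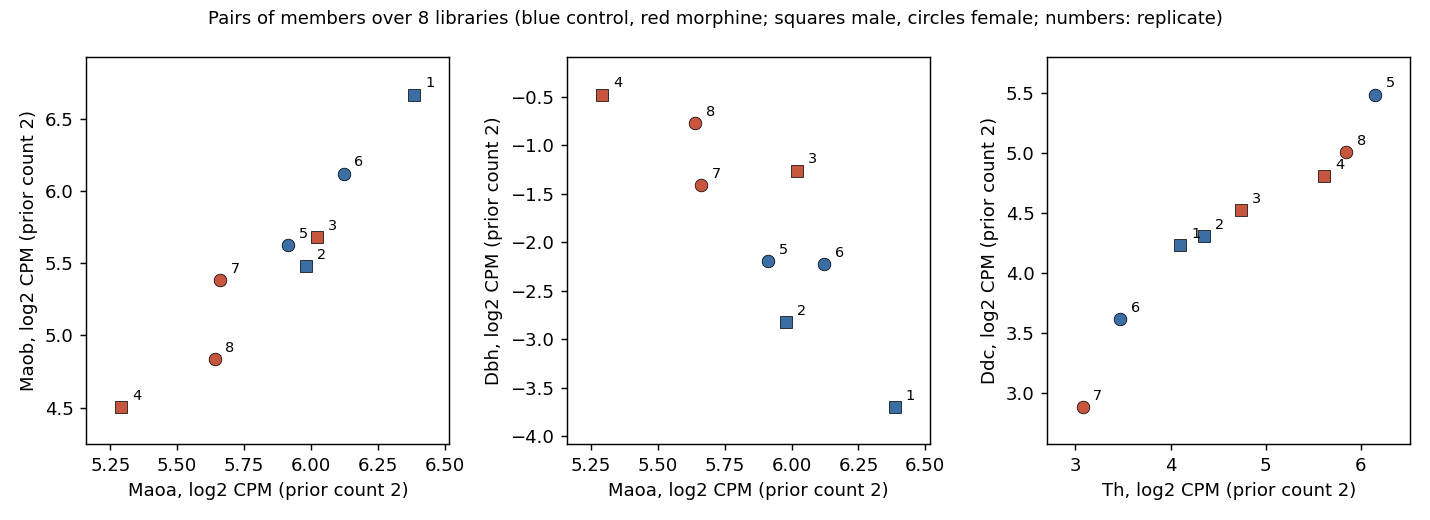
Log2 CPM (prior count 2) of 3 pairs of genes, with 1 point per library, numbered by replicate, blue for control and red for morphine, squares for male and circles for female. Th and Ddc rise in 1 order over all libraries, Maoa and Maob do so with control 2 and control 5 exchanged, and Dbh is lowest where Maoa is highest (control 1) and highest where Maoa is lowest (morphine 4).

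Control 1, control 6 and morphine 7 were the 3 lowest libraries for 4 of the 8 genes, Th, Ddc, Slc18a2 and Slc6a3. For 442 of the 12989 genes with a mean of at least 1 CPM (3.4%) the same 3 libraries were lowest. Low libraries thus came from both groups and both sexes. Of 11 marker genes of midbrain dopaminergic neurons, 8 had the same 3 lowest libraries, Pitx3, Foxa1, Foxa2, En1, En2, Lmx1b, Chrna6 and Ret. En1, a homeobox factor of midbrain neurons, was at 0.0325 CPM in morphine 7, 0.109 in control 6 and 0.256 in control 1, and at 4.77 to 8.57 CPM in the other 5 libraries. Among the other 13 marker lists, the same libraries were lowest for 1 of 5 serotonergic genes (Gata3), for 1 of 7 astrocyte genes (S100b) and for 0 genes in each other list. Nr4a2, Lmx1a and Slc10a4 did not have those 3 lowest libraries. The summed level of the 11 midbrain genes was 58.3 to 109 CPM in control and 75.7 to 161 CPM in morphine libraries, so that it overlapped between the groups. Much of this sum is Nr4a2 and Ret, at 46.6 and 24.6 of 74.5 CPM in control 6 and 43.4 and 26.6 of 75.7 CPM in morphine 7. The sum thus does not show the range of genes such as En1. The part of midbrain cells in these levels was not tested.

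The ratio of Th to Slc6a3 per kilobase was 3.59 to 5.37 in the 5 high libraries and 40.7 in control 1, 69.7 in control 6 and 97.5 in morphine 7. Th and Ddc RNA was thus still read in libraries with little Slc6a3. Among all genes with a mean of at least 1 CPM, the 3 most like Slc6a3 over the 8 libraries were Slc18a2 (r = 0.990), En1 (0.988) and Gch1 (0.967), the last of which makes the cofactor that Th needs. Those most like Slc18a2 were Slc6a3, En1 (0.985) and En2 (0.982). Those most like Th were Ddc, 4930526I15Rik (0.958) and Slc6a3, and those most like Ddc were Th, Fam167a (0.955) and Gm514 (0.951). The r values of Slc6a3 and Slc18a2 span their low and high libraries and are given as a description.

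**Figure D4:**
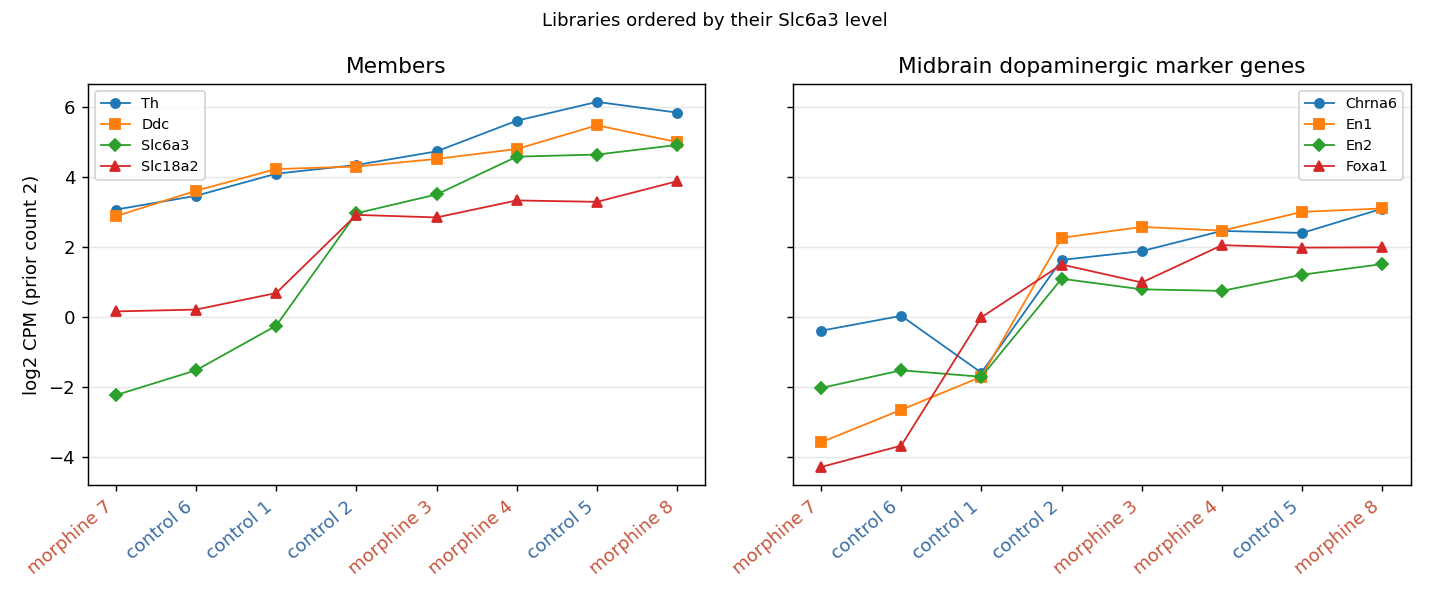
Log2 CPM (prior count 2, y axis) of 4 of the genes (left) and of 4 marker genes of midbrain dopaminergic neurons (right), with libraries on the x axis in the order of their Slc6a3 level. Morphine 7, control 6 and control 1 stand lowest for all 8 lines, and the step to control 2 is smaller for Th and Ddc than for Slc6a3 and En1.

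The oxidases followed another profile. Most like Maoa were Paip2b (r = 0.986), Tub (0.977) and Rnf220 (0.977), and most like Maob were Cyb5b (0.989), Necab1 (0.986) and Rnh1 (0.977). Over the same 8 libraries, the 6 thalamic marker genes had r from 0.39 (Slc17a6) to 0.96 (Gbx2) with Maoa and from 0.13 (Slc17a6) to 0.94 (Gbx2) with Maob, as a description of points that share the group difference. Per kilobase the ratio of Maoa to Maob stayed between 0.476 and 1.01. For Slc6a2 the leading genes were Nrg2, Rrbp1 and Kcnk4, but its counts of 0 and 1 give no profile.

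Of 28 other genes of the monoamine pathway, edgeR called 0 and limma-voom called 0, and DESeq2 called 1, Sult1a1. That share of calls is set against 3.29% of all genes in DESeq2. At an unadjusted p under 0.05, 3 were higher and 1 was lower in morphine, against 6.79% and 5.31% of all genes. The median log2 fold change was 0.13 over these 28 genes. Sult1a1, a sulfotransferase of phenols and monoamines, was at 0.150 ± 0.116 CPM in control and 0.570 ± 0.178 CPM in morphine libraries (SD, n = 4 each), with a log2 fold change of 1.89 ± 0.48 (SE) and an adjusted p = 0.148 in edgeR and 0.0376 in DESeq2. Its groups did not overlap, as was also so for Atp7a, the copper transporter of the secretory pathway, which is named after its values were seen. These are 2 of the 28 genes, a share near the 6.54% of all genes.

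Among the other genes of synthesis (Tph1, Tph2, Hdc, Pnmt), Tph1, a tryptophan hydroxylase best known from the pineal, had a log2 fold change of 1.24 ± 0.57 (SE) with an adjusted p = 0.412 in edgeR, and the summed pineal markers were 0.769 to 1.41 CPM in control and 1.14 to 2.59 CPM in morphine libraries. Of 6 genes of cofactor synthesis, 1 was at an unadjusted p under 0.05, Pcbd1, which recycles the cofactor, at -0.38 ± 0.14 (SE) with an adjusted p = 0.313 in edgeR. Of 4 genes that supply copper and ascorbate, which Dbh needs, 1 was, Slc31a1, the copper importer, at 0.40 ± 0.17 (SE) with an adjusted p = 0.377 in edgeR. The 6 other transporters had 0 at that p. The Dbh homologue Moxd1 did not pass at that p either.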

How the data were processed

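TRAP-Seq RNA of 8 libraries, 4 per group, was analysed from 1 table. The authors deposited whole-number counts per RefSeq transcript and library, not normalized, and the tool and strand setting behind the counts are not given in the sources used here. The study's methods describe Salmon with an mm10 index and a gene-level matrix, and do not mention a table of this kind. All sample columns were used (0 left out), and groups, sexes and replicate numbers came from the labels. Of several transcripts of a gene, the one with the highest total was used. Total counts were 31151103 to 47582947 per library, and counting error limits the precision of Dbh and Slc6a2.

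Counts were normalized with TMM and tested over all 18939 genes with a count in any library, by edgeR 4.0.16 (R 4.3.3; glmQLFit, glmQLFTest) with Benjamini-Hochberg adjustment (threshold 0.05). CPM were computed from the counts and TMM library sizes. The standard errors given for edgeR were derived, as the absolute log2 fold change divided by the square root of the F statistic of its test. Single genes were also tested on log2(CPM + 0.5) by exact two-sided permutation over 70 arrangements. Correlations used log2 CPM (prior count 2) with two-sided permutation tests (scipy 1.17.1). Alternatives were DESeq2 1.42.0, limma-voom (limma 3.58.1), RLE or upper-quartile factors, filterByExpr, sums over transcripts, sex in the model and each library left out. The fits were tested on simulated data. Nothing in the labels says whether libraries were prepared in batches, so no comparison within batches was made, and p-values measure the spread between these libraries.

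The genes, the 28 pathway genes and the marker lists were chosen with earlier results of these data known. All 8 genes were described, pathway genes were named at an unadjusted p under 0.05 or with a group at 0 (1 of these and 1 marker gene are not reported here), and the 3 genes most like each (10 for Dbh) were named. Gene coordinates and promoter windows are RefSeq on GRCm38.p6, and exons and lengths are from GENCODE on GRCm38. Summed CPM of the marker lists not given above were, in control and morphine libraries, 11.9 to 40.7 and 4.15 to 27.7 (hypothalamic peptide neurons), 44.1 to 61.3 and 35.6 to 56.4 (medial habenula, 5 of 6 genes in the table), 82.7 to 995 and 473 to 1338 (oligodendrocytes), 0.956 to 5.22 and 2.08 to 3.12 (microglia), 5.91 to 16.1 and 6.56 to 9.60 (endothelium and pericytes), and 6.44 to 7.98 and 6.35 to 13.0 (ependyma).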

Additional observations from a re-analysis of the deposited data

Results flagged for a closer look

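Th in control 5 stood apart from the other control libraries, at 71.1 CPM against 11.0 to 20.3 CPM. Its gap to the nearest control library was 0.845 of the range of the group, above Dixon's critical value for 4 libraries. In all, 14 such groups were examined, and chance marks about 1 group in 20. Control 5 is also the library labelled female that holds Y-linked counts, and the part of this in its Th level was not tested.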

How the results depend on the processing

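Of the 8 genes, the count called was 0 under every alternative except DESeq2, which called 1 (Dbh), and of the 28 pathway genes it was 0 except under DESeq2, which called 1 (Sult1a1). The log2 fold change of Dbh kept its sign in all 15 alternatives, with adjusted p from 0.0260 to 0.323, and those of Slc18a2, Slc6a3, Maoa and Maob kept theirs. That of Th ranged from -0.095 to 1.11 with 1 library left out (-0.056 without control 6, -0.095 without morphine 8, 1.11 without control 5), and that of Ddc from -0.32 to 0.40 (0.40 without control 5, 0.19 without morphine 7). Over all genes the count called was 37, but 502 with DESeq2, 110 with sex in the model, 23 with limma-voom, 22 with sums over transcripts and 14 with filterByExpr, which tests fewer genes, and 0 to 77 with 1 library left out (0 without morphine 4 and without morphine 8, 1 without control 1, 11 without morphine 7, 20 without control 5, 77 without control 6 and without morphine 3), for which the cause was not tested. Genes of the set whose groups do not overlap numbered 1 to 3 with 1 library left out, 3 without morphine 3, when Maoa and Maob joined Dbh and 12.6% of all genes did not overlap. Pairs past the threshold numbered 9, and 7 with group means subtracted or by rho and 7 to 11 with 1 library left out, and the pairs of Dbh with the oxidases were lost in those with 7. For the interaction of sex with morphine, 4 of the 8 genes (Th, Ddc, Slc18a2 and Slc6a3) were at an unadjusted p under 0.05 without morphine 8 (1.42% of all genes) and 2 (Th and Ddc) without control 6 (2.24%), which leaves 1 library in a sex and group that is assumed to vary like the others, and 0 of the 8 were called. No paired analysis was possible because control and morphine libraries share no replicate numbers. Depth limits Dbh, with 1 to 26 counts per library, and Slc6a2, with 0 or 1.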
